A study of Homo sapiens with 4 samples.

Results

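The MYC, MAX and MXD/MNT network was examined in LN229 cells, an established human glioblastoma line, through its 10 genes MYC, MYCN, MYCL, MAX, MXD1, MXD3, MXD4, MXI1, MNT and MLX. They were taken by gene symbol from the array table, which held 23786 rows, 22458 of them with a gene symbol, and each of the 10 had 1 row. Cells were transfected with a pool of siRNAs against RAB38 (siRAB38, n = 2 arrays) or with a pool of nontargeting siRNAs (NT, n = 2 arrays), and RNA was taken 48 h later, after serum, left out during transfection, had been given back at 1.5% in both groups. RNA was read on Affymetrix arrays, and values are log2 signals from 1 cell line and 1 siRNA pool per group. The silenced gene had log2 values of 2.52 and 3.43 in the siRAB38 arrays, against 4.69 and 4.78 in the NT arrays, a log2 difference of -1.76 (siRAB38 minus NT, SE, the standard error, 0.30, adjusted p = 0.72 from limma, -2.21 to -1.31 without 1 array). RAB38 was thus lower in both siRAB38 arrays, with the lower value in array 1.

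MYC proteins are basic helix-loop-helix leucine zipper transcription factors that bind DNA only as a dimer with MAX. The MYC/MAX dimer binds the E-box CACGTG and activates genes of growth, ribosome production and cell cycle entry. MAX also pairs with MXD1, MXD3, MXD4, MXI1 and MNT, and these dimers occupy the same E-box but recruit the SIN3 corepressor with its histone deacetylases. MLX is a MAX-like protein that pairs with some MXD proteins, with MNT, and with the glucose-responsive factors encoded by MLXIP and MLXIPL. In brain tumours, MYC and MYCN are known as drivers of proliferation.

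The promoters of the network hold this E-box themselves in some members. A RefSeq table of assembly GRCh38.p14 gave windows from 250 bases before to 50 bases after each start. In it 9 of the 10 members matched, through 12 windows (3 for MXI1 and 2 for MAX). MYC itself had no window there, so its promoter was not searched for any motif. The E-box CACGTG, which reads the same on both strands, was in the windows of MXD4, MNT and MLX, 3 of 12, whereas 7.26% of all 35116 windows held it. The variant CACGCG, searched on both strands, was in 1 window each of MXD3 and MXI1, 2 of 12, against 11.43% of all windows. The motif of E2F factors, searched on both strands as TTTCGCGC or TTTGGCGC, was in the window of MYCN alone, against 1.15% of all windows, and occurred there as an overlapping pair on opposite strands. The 250 bases before the start are shown for MXD4 and MXD3, the members with the highest fold changes below, for MNT and MLX as the other members with the E-box, and for MYCN with its E2F motifs. Capitals mark the E-box or the E2F pair, and a match is a run of letters, not a measured binding site. The windows are chr4:2262110-2262359 on the minus strand for MXD4, chr5:177312753-177313002 on the minus strand for MXD3, chr17:2401061-2401310 on the minus strand for MNT, chr17:42566850-42567099 on the plus strand for MLX and chr2:15940300-15940549 on the plus strand for MYCN.
MXD4: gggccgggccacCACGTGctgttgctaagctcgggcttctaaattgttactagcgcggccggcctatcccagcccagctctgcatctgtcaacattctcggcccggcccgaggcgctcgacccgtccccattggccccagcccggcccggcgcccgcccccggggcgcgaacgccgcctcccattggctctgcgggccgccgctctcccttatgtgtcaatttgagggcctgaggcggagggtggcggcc
MXD3: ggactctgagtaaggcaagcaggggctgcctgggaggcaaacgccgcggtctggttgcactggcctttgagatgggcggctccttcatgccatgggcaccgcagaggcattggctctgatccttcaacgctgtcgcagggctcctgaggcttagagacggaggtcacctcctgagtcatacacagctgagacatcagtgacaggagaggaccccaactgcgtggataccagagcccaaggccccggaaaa
MNT: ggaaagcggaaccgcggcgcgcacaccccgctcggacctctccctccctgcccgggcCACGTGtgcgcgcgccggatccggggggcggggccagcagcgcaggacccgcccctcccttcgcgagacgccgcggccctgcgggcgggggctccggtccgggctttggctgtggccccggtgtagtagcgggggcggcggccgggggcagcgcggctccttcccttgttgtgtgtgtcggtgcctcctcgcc
MLX: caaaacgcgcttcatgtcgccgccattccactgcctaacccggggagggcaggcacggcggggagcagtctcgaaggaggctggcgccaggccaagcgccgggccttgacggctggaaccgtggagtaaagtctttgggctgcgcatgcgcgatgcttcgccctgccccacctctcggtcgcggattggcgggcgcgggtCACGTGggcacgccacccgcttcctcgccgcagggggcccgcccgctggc
MYCN: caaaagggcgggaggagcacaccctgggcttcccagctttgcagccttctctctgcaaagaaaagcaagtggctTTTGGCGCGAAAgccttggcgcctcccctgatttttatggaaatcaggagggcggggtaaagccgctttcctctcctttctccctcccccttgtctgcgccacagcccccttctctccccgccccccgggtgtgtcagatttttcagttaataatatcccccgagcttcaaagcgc
The E-box began at position -238 in MXD4, -193 in MNT and -50 in MLX, counted from the start with no position 0. The match of MXD3 to CACGCG began at position 9 of the transcript and is therefore outside the printed stretch.

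In the siRAB38 arrays MYC and MYCN lay below NT and the antagonists MXD3, MXD4 and MXI1 above it, with no overlap between the groups in any of these 5 genes. MAX was also above NT in both arrays, by a small margin. MYCL, MXD1, MNT and MLX had overlapping arrays. No member passed the adjusted threshold of 0.05 in limma, nor did any of the 22458 genes (0% of genes called), by limma or by the methods' t-test. The network was therefore described by its values. At an unadjusted p under 0.05, 1 member was lower, where 3.1% of all genes were, and 2 were higher, where 3.75% of all genes were. In number these were 842 genes higher and 697 lower by limma, and 776 higher and 697 lower by the methods' t-test. Of the 10 members, 0 passed that level by the methods' t-test, and by limma 1 passed it without siRAB38 array 2, without NT array 1 or without NT array 2. The siRAB38 arrays were both below NT in 2 of the 10 members, against 17.2% of all genes, and above them in 4 members, against 18.8%. The smallest two-sided p that exact permutation of 2 and 2 arrays allows is 0.333. The labels do not say that the arrays of 1 group stand for separate cultures, so p-values measure the spread between these arrays only, which may be technical.

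**Figure D1:**
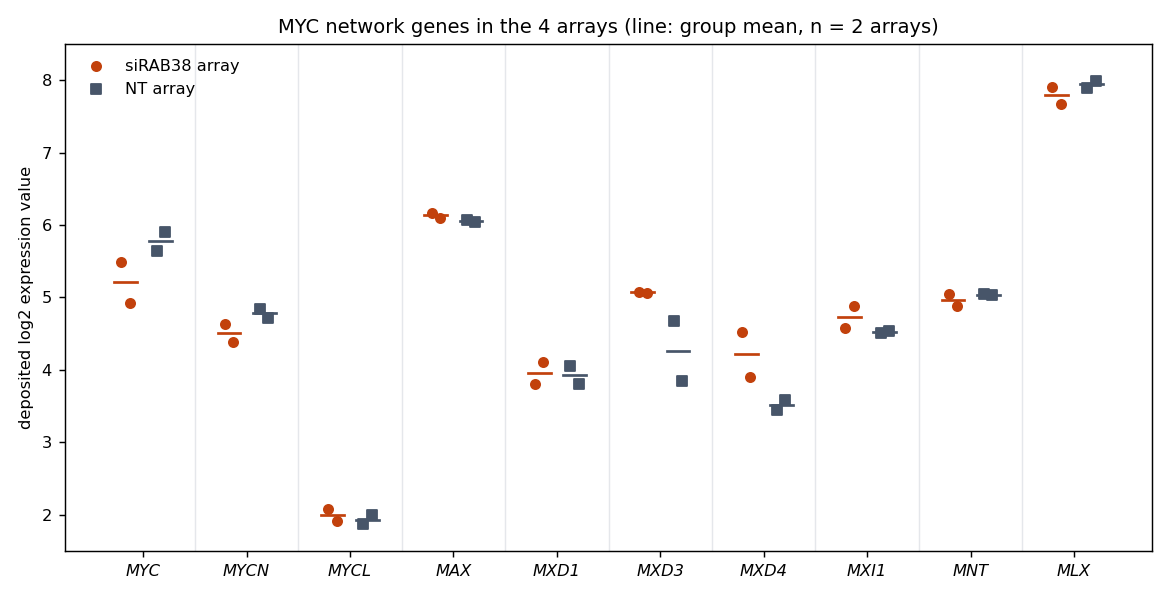
Deposited log2 values of the 10 network genes, with siRAB38 arrays as circles and NT arrays as squares and a line at each group mean (n = 2 arrays). MYC and MYCN lie below NT in both siRAB38 arrays and MXD3, MXD4 and MXI1 above it; heights are not comparable between genes, since each gene has its own probes.

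Among the MYC paralogs, MYC itself had log2 values of 5.49 and 4.93 in the siRAB38 arrays, against 5.64 and 5.90 in the NT arrays. Neither siRAB38 array reached the NT arrays, but array 1 was only a little below the nearer NT array while array 2 was far below it. The mean was 5.21 ± 0.39 in siRAB38 and 5.77 ± 0.18 in NT (SD, n = 2 each). This gave a log2 difference of -0.57 (SE 0.22, 95% interval -1.12 to -0.02, adjusted p = 0.72), or 67.5% of the NT level, and MYC ranked 160th from the lowest of 22458 fold changes. Without siRAB38 array 2 the value was -0.29, and without siRAB38 array 1 it was -0.84. Array 2, with the lower MYC value, was the siRAB38 array with more RAB38 left. MYCN, a paralog with a largely neural expression pattern, had 4.64 and 4.39 in the siRAB38 arrays, against 4.84 and 4.72 in the NT arrays. The groups did not overlap, with a log2 difference of -0.27 (SE 0.13, adjusted p = 0.74, -0.14 without siRAB38 array 2), or 83.1% of the NT level. MYCL had 2.08 and 1.91 in the siRAB38 arrays, against 1.87 and 2.00 in the NT arrays, which overlapped. Its signal was among the dimmest 30% of genes, so that its fold change of 0.06 (log2, SE 0.12) has little weight.

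MAX, the obligate partner, had log2 values of 6.16 and 6.10 in the siRAB38 arrays, against 6.06 and 6.05 in the NT arrays. The siRAB38 arrays were both higher, by a log2 fold change of 0.08 that was smaller than its SE of 0.10 (adjusted p = 0.91). Its 95% interval, -0.19 to 0.34, holds no fold change of the size seen in MYC, MXD3 or MXD4. MLX had 7.91 and 7.68 in the siRAB38 arrays, against 7.89 and 7.99 in the NT arrays. Array 1 of siRAB38 lay between the NT arrays, and the log2 fold change was -0.15 (SE 0.13, adjusted p = 0.85, -0.26 to -0.03 without 1 array).

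Of the 5 antagonists, MXD3 had the highest fold change. Its log2 values were 5.08 and 5.07 in the siRAB38 arrays, against 4.67 and 3.84 in the NT arrays. The siRAB38 arrays were nearly the same, whereas the NT arrays differed from each other by about as much as the groups did. The mean was 5.07 ± 0.01 in siRAB38 and 4.26 ± 0.58 in NT (SD, n = 2 each), a log2 difference of 0.81 (SE 0.28, 95% interval 0.11 to 1.52, adjusted p = 0.72), or 176% of the NT level. It was the 39th highest of 22458 fold changes, but without NT array 2 the value was 0.40 and without NT array 1 it was 1.23, so the size rests on the NT arrays. In mice, Mxd3 is known to be expressed in proliferating cells around S phase, unlike the other family members, which are linked to cell cycle exit and differentiation.

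MXD4 had log2 values of 4.53 and 3.90 in the siRAB38 arrays, against 3.44 and 3.59 in the NT arrays. Here the NT arrays were close and the siRAB38 arrays apart, with the higher value in array 1, where RAB38 was lowest. The mean was 4.21 ± 0.45 in siRAB38 and 3.51 ± 0.10 in NT (SD, n = 2 each), a log2 difference of 0.70 (SE 0.23, 95% interval 0.12 to 1.27, adjusted p = 0.72), or 162% of the NT level and the 70th highest of all genes. The value was 0.38 without siRAB38 array 1 and 1.01 without siRAB38 array 2. MXI1, also known as MXD2, had 4.58 and 4.88 in the siRAB38 arrays, against 4.50 and 4.53 in the NT arrays. Both siRAB38 arrays were higher, array 1 by little, with a log2 difference of 0.21 (SE 0.14, adjusted p = 0.785) that was 0.06 without siRAB38 array 2.

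The remaining antagonists showed no separation of the groups. MXD1, the founding MXD gene, had log2 values of 3.81 and 4.11 in the siRAB38 arrays, against 4.06 and 3.81 in the NT arrays. The ranges nearly coincided, with a log2 difference of 0.03 (SE 0.16, 95% interval -0.38 to 0.43). MNT, the most widely expressed antagonist, had 5.05 and 4.88 in the siRAB38 arrays, against 5.05 and 5.03 in the NT arrays. Its log2 fold change was -0.08 (SE 0.12, adjusted p = 0.92), with array 2 of siRAB38 alone below NT. Of the 3 members with the E-box in the promoter window, MXD4 had a log2 fold change of 0.70, MNT of -0.08 and MLX of -0.15, so the match did not go with 1 direction.

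**Figure D2:**
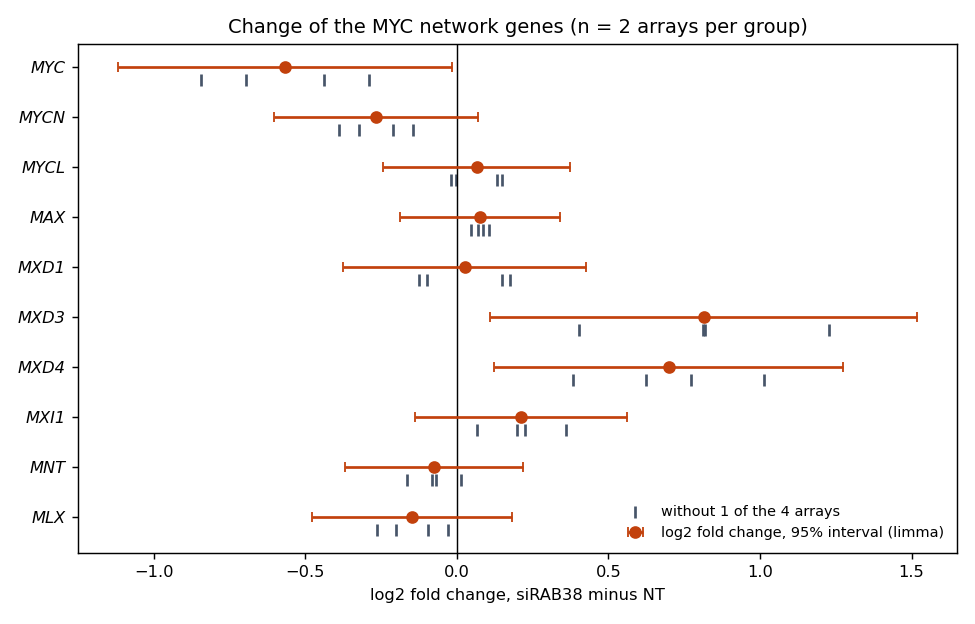
Log2 fold change of each network gene, siRAB38 minus NT, with the 95% interval from limma (n = 2 arrays per group) and, as ticks below, the 4 values without 1 array. The intervals of MYC, MXD3 and MXD4 lie to 1 side of 0 before adjustment, and MYCL, MXD1 and MNT have ticks on both sides of 0.

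MYC was then set against its partner and antagonists within each array. The difference in log2 values has no meaning as a level, since probes differ between genes, and only its change from the NT mean was read. MYC relative to MXD4 was -1.30 and -1.23 in the siRAB38 arrays, against -0.05 and 0.05 in the NT arrays. The mean change was -1.27, and the SD between arrays was 0.05 in siRAB38 and 0.08 in NT. The siRAB38 arrays thus differed clearly in MYC and in MXD4 but little in the difference of these genes, since array 1 had the higher value of both. Relative to MXD3, MYC was -1.11 and -1.65 in the siRAB38 arrays, against -0.54 and 0.54 in the NT arrays, a change of -1.38 with a wide spread in both groups. Relative to the mean of the 5 antagonists it was -0.65 and -1.16 in the siRAB38 arrays, against -0.22 and 0.22 in the NT arrays, a change of -0.90 (-1.16 to -0.65 without 1 array). The changes were -0.78 against MXI1, -0.64 against MAX, -0.59 against MXD1 and -0.49 against MNT, and the groups overlapped only for MXD1. These 7 differences all contain MYC and are not separate observations, and no test was made on them.

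**Figure D3:**
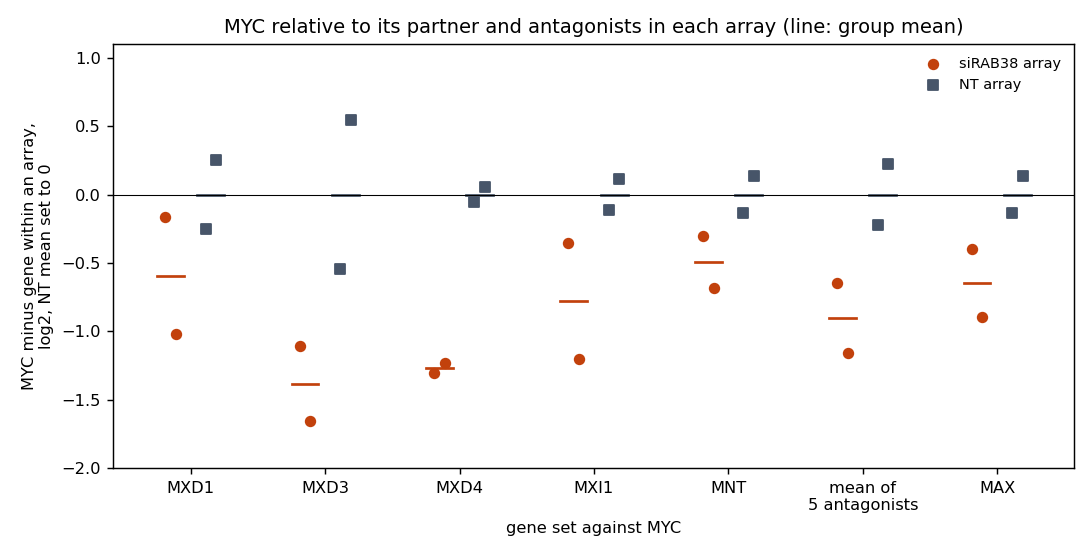
Log2 value of MYC minus that of each antagonist, their mean or MAX within an array, with the mean of the NT arrays set to 0 (circles: siRAB38 arrays; squares: NT arrays; line: group mean, n = 2 arrays). The siRAB38 arrays lie closest together against MXD4, at -1.30 and -1.23, and overlap NT only against MXD1.

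Further genes that pair with MAX or MLX, or bind MYC or E-boxes, reached from -0.03 to 0.26 on the log2 fold scale. Of 6 such genes, 5 lay above 0 and 1 below, and the median on the log2 fold scale was 0.10, where that of all genes was 0.005. MLXIPL, which encodes the carbohydrate response factor ChREBP, had 2.65 and 2.27 in the siRAB38 arrays, against 2.35 and 2.05 in the NT arrays, which overlapped (log2 fold change 0.26, SE 0.18, 0.07 without siRAB38 array 1 and 0.45 without siRAB38 array 2). MLXIP, which encodes MondoA, had 7.02 and 6.88 in the siRAB38 arrays, against 6.87 and 6.83 in the NT arrays, the only 1 of the 6 without overlap (log2 fold change 0.10, SE 0.11, 0.03 to 0.16 without 1 array), where 18.8% of all genes lay above NT in both arrays. MGA, a MAX partner in a repressive complex, had a log2 fold change of 0.11, the bHLH gene TCFL5 of 0.11 (0.01 to 0.21 without 1 array), SNAI1, a zinc finger repressor, of 0.005 and ZBTB17, which encodes the MYC-binding factor MIZ1, of -0.03. Of 7 genes linked to MLX and glucose sensing, 3 lay above 0 and 4 below, with a log2 median of -0.05. TXNIP, the best known target of MondoA and MLX, had 8.05 and 8.36 in the siRAB38 arrays, against 8.15 and 7.77 in the NT arrays, which overlapped. ARRDC4, its companion target, had a log2 fold change of -0.12 (-0.17 to -0.07 without 1 array) and KLF10 of -0.23, both with the siRAB38 arrays below NT. Over the 7 genes, both siRAB38 arrays lay below NT in 3 and above in 0, against 17.2% and 18.8% of all genes. Among 9 other bHLHZ factors, 6 lay above 0, with a log2 median of 0.05, and the melanocyte factor gene MITF had a log2 fold change of -0.23, or -0.10 without siRAB38 array 1, with both siRAB38 arrays below NT. MITF was picked for the smallest unadjusted p of this list in limma. Of the 9 factors, 1 lay below NT in both siRAB38 arrays and 1 above, against 17.2% and 18.8% of all genes.

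Cofactors on both sides of the network were mixed in direction. Of 22 measured MYC cofactors, 8 lay above 0 and 14 below, and the median on the log2 fold scale was -0.04. PIM1, a kinase that acts with MYC, had 5.33 and 5.24 in the siRAB38 arrays, against 5.64 and 5.84 in the NT arrays, a log2 difference of -0.45 (SE 0.12, adjusted p = 0.72). CCNT1, the cyclin of the elongation kinase P-TEFb, had a log2 fold change of -0.33 and RUVBL2, a helicase of the TIP60 complex, had -0.28, while the DNA methyltransferase gene DNMT3A had 0.27. Of 15 SIN3 corepressor genes, through which MXD and MNT repress, 7 lay above 0 and 8 below, with a log2 median of 0.00. The shares below 0 were 63.6% for the cofactors and 53.3% for the SIN3 genes, against 48.4% of all genes. SAP30, a SIN3 subunit, had 5.50 and 5.49 in the siRAB38 arrays, against 5.11 and 5.21 in the NT arrays, a log2 difference of 0.33 (SE 0.11). SIN3B had a log2 fold change of 0.13, whereas the deacetylase genes HDAC1 and HDAC2 had -0.13 and -0.14. Without 1 array SIN3B ranged from 0.05 to 0.22 and HDAC2 from -0.21 to -0.06. In all of these except DNMT3A, SAP30 and SIN3B both siRAB38 arrays lay below NT, and in those 3 both lay above. The named genes were picked for the smallest unadjusted p of each list in limma. Over the whole lists, both siRAB38 arrays lay above NT in 6 of 22 cofactors and 3 of 15 SIN3 genes, against 18.8% of all genes. They lay below in 7 and 3, against 17.2% of all genes.

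Genes that act on MYC itself were examined next. Of 23 genes of MYC protein turnover, 10 lay above 0 and 13 below, and the median on the log2 fold scale was -0.05. FBXW7, the ubiquitin ligase subunit that marks MYC for degradation, had 5.42 and 5.53 in the siRAB38 arrays, against 5.04 and 5.29 in the NT arrays, a log2 difference of 0.31 (SE 0.13, 0.18 to 0.43 without 1 array). PPP2CA, the catalytic subunit of the phosphatase PP2A, had 9.05 and 8.997 in the siRAB38 arrays, against 9.32 and 9.43 in the NT arrays, a log2 difference of -0.35 (SE 0.11). The ligase genes FBXO32 and SKP2 had log2 fold changes of -0.30 and -0.25. These 4 genes, picked for the smallest unadjusted p of the list in limma, had no overlap between the groups. Over the whole list, both siRAB38 arrays lay above NT in 4 genes and below in 7, against 18.8% and 17.2% of all genes. Of 24 genes of MYC transcription and mRNA handling, 7 lay above 0 and 17 below, with a log2 median of -0.06. The shares below 0 were 56.5% for protein turnover and 70.8% for transcription and mRNA handling, against 48.4% of all genes. SMAD3, the TGF-β effector that takes part in MYC repression, had 7.37 and 7.36 in the siRAB38 arrays, against 7.81 and 7.84 in the NT arrays, a log2 difference of -0.46 (SE 0.10, -0.48 to -0.45 without 1 array). The difference stood well above the spread between its arrays, though it did not pass over all genes (adjusted p = 0.72). SMAD3 and the other genes of this list named here were picked for its smallest unadjusted p in limma. Over all 24 genes, both siRAB38 arrays lay above NT in 5 and below in 8, against 18.8% and 17.2% of all genes. TFDP1, the E2F partner, and PTBP1, a splicing regulator, had log2 fold changes of -0.25 and -0.21. PVT1, a long noncoding RNA from a gene next to MYC, had 6.92 and 6.79 in the siRAB38 arrays, against 6.64 and 6.58 in the NT arrays, so that it lay above NT (log2 fold change 0.25, SE 0.11) where MYC lay below it.

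Of 36 measured genes that MYC is known to activate, 8 lay above 0 and 28 below, which is 77.8% of the list, against 48.4% of all genes. Both siRAB38 arrays lay below NT in 14 of them, where 17.2% of all genes did, and above in 2, where 18.8% of all genes did. The median log2 fold change was -0.10. ODC1, a classical E-box target whose enzyme starts polyamine synthesis, had 7.16 and 6.90 in the siRAB38 arrays, against 7.58 and 7.88 in the NT arrays, a log2 difference of -0.70 (SE 0.16, adjusted p = 0.72). The nucleolar genes NPM1, DKC1 and MRTO4 had log2 fold changes of -0.57, -0.33 and -0.45, each with both siRAB38 arrays below NT. Without NT array 2, NPM1 had -0.35 and MRTO4 had -0.28. Of 29 of these targets with a promoter window, 16 held CACGTG, against 10.7% of 16038 measured genes. Those 16 had a log2 median of -0.09 and the other 13 of -0.14. Over all measured genes, the 1711 with the E-box had a median log2 fold change of 0.00, as had the 14327 without it, and 49% and 48.8% lay below 0. The list was written with earlier results of these arrays known, so its count is no independent evidence of direction.

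The 19 measured genes that MYC is known to repress were split, with 10 above 0 and a median log2 fold change of 0.02. The other 9 include CDKN1C, which had the same log2 value of 2.78 in every array and thus no difference, and the rest lay below 0. CDKN1A, the gene of the CDK inhibitor p21 and also a target of p53, had 6.01 and 5.80 in the siRAB38 arrays, against 5.05 and 5.25 in the NT arrays. The groups were well apart, with a log2 difference of 0.75 (SE 0.14, 0.65 to 0.86 without 1 array, adjusted p = 0.72). DDIT3 and KLF6, a stress-response and a zinc finger transcription factor, had log2 fold changes of 0.37 and 0.25, both with the siRAB38 arrays above NT. The growth arrest gene GADD45B had 5.68 and 5.40 in the siRAB38 arrays, against 5.91 and 5.97 in the NT arrays, a log2 difference of -0.40 (SE 0.14, -0.26 without siRAB38 array 2). CDKN1A, DDIT3, KLF6 and GADD45B were picked for the smallest unadjusted p of the list in limma. Over the 19 genes, both siRAB38 arrays lay above NT in 7 and below in 5, against 18.8% and 17.2% of all genes.

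**Figure D4:**
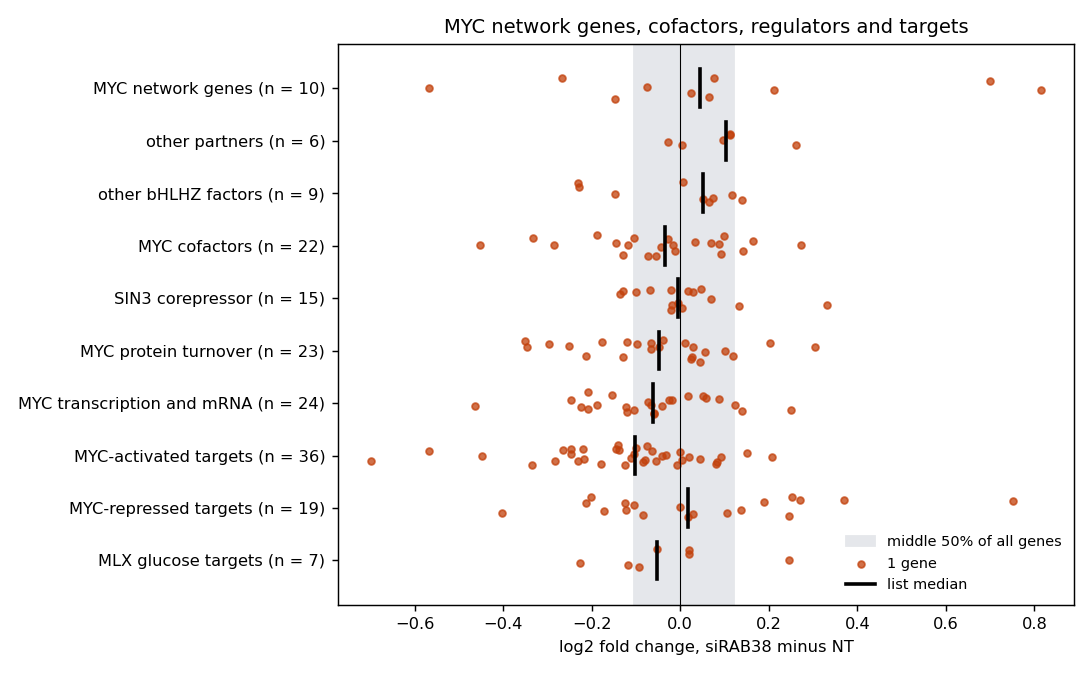
Log2 fold changes, siRAB38 minus NT, of every measured gene in the network and in 9 lists of its partners, cofactors, regulators and targets (points; black bars are list medians; the grey band holds the middle 50% of all genes). The network genes reach from -0.57 for MYC to 0.81 for MXD3 around a median of 0.04, and the MYC-activated targets have the lowest median, -0.10.

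The genes whose profile over the 4 arrays was closest to that of MYC were STEEP1, IL1B and WASH3P. After each gene was centred on its own mean, their Euclidean distances from MYC were 0.06, 0.11 and 0.13 on the log2 scale. STEEP1 had 4.08 and 3.59 in the siRAB38 arrays, against 4.28 and 4.56 in the NT arrays. With 4 arrays and 22458 genes such closeness is a description only.

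The arrays had medians from 3.47 to 3.51 and correlated at 0.993 to 0.994, and they measured mRNA, so they do not speak to c-Myc protein. The glioma markers vimentin (VIM), CD44, S100B, NES and SOX2 were above the array medians in every array, but GFAP, the astrocyte intermediate filament, was 3.35 and 2.81 in siRAB38 and 3.11 and 3.08 in NT, below them. Of 10 markers of immune, endothelial, neuronal, oligodendrocyte, epithelial or stromal cells, 0 lay above NT in both siRAB38 arrays and 1, COL1A1, lay below, against 18.8% and 17.2% of all genes. By level, the immune marker CD68 was above the array medians in every array, at 7.51 and 7.98 in siRAB38 and 8.27 and 7.58 in NT. COL1A1 was also above them, at 4.47 and 4.45 in siRAB38 and 4.48 and 4.64 in NT. MOG, EPCAM and PECAM1 lay below them in every array. All RNA came from cultures of the LN229 line, so these marker levels give no count of other cell types. Fewer cells in a given state and less RNA per cell cannot be told apart in such bulk samples.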

How the data were processed

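Total RNA of LN229 cells (siRAB38 and NT, 2 arrays each) was labelled with the WT Plus kit. The authors deposited log2 values made by RMA, which corrects background, forces a common distribution on the arrays and summarises probes, so a shift of all genes cannot be seen and dim genes are compressed. The submitters' processing notes name RMA, affy 1.60.0 and R 3.5.1, and the probe grouping and genome build are not given in the sources used here. Groups came from the sample titles. Of 23786 rows, 22458 had 1 symbol by the platform annotation, 0 had several and 1328 had none and were left out. Symbols were checked against RefSeq by gene identifier, and 0 changed.

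siRAB38 was compared with NT in limma 3.58.1 under R 4.3.3 (lmFit and eBayes, prior degrees of freedom 3.15, 2 residual), with p-values adjusted by Benjamini and Hochberg over the 22458 genes, and each printed adjusted p comes from that fit. The code was tested on simulated data. The paper names ANOVA and a t-test in general, so limma was a choice, with the methods' t-test as an alternative. Named genes were the 10 members, RAB38, the 6 further partners, TXNIP and ARRDC4, up to 4 genes of each other list with the smallest unadjusted p, and the 3 genes nearest to MYC. VIM, NES, GFAP, CD68 and CDKN1C were named after their values were seen. The members and the 12 lists (202 entries, 189 measured) were chosen with earlier results of these data known, and the lists come from general knowledge. Pairwise differences with MYC and the promoter motifs were added after the values were seen. The replicate numbers were tested as a pairing: same-numbered arrays deviated from their group means with a correlation of -0.05.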

Additional observations from a re-analysis of the deposited data

How the results depend on the processing

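No gene passed the adjusted threshold in limma or under any of the 13 alternatives, the methods' t-test among them, and their smallest adjusted p ranged from 0.366 to 0.968. The 10 network genes (MYCL apart where the dimmest genes were left out) kept their direction under every alternative that used all 4 arrays, and moved by at most 0.02 on the log2 scale there. At an unadjusted p under 0.05, 3 members passed in limma and 0 in the methods' t-test. With the replicate number as a block (replicate block) 2 did, and 667 genes were higher and 582 lower, against 842 and 697 without it; the labels do not say that a number marks a shared culture or day. Centring on array medians put the genes of MYC transcription and mRNA handling at a median of -0.073 and SNAI1 at -0.007.

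Without 1 array, members with an unadjusted p under 0.05 ranged from 1 to 3, with 1 without siRAB38 array 2, NT array 1 or NT array 2. Genes higher at that p ranged from 504 to 919 and genes lower from 416 to 705, the lowest counts without NT array 1. Non-overlap is easier with 1 array in a group, and genes above NT then ranged from 7444 to 8111 and genes below from 7078 to 7785. The median log2 fold change ranged from -0.0072 to 0.041 for the network genes, from 0.050 to 0.10 for further partners, from -0.052 to 0.0034 for other bHLHZ factors, from -0.050 to 0.0078 for cofactors, from -0.031 to 0.020 for the SIN3 corepressor, from -0.085 to 0.039 for MYC turnover, from -0.077 to -0.020 for MYC transcription, from -0.064 to 0.050 for repressed targets and from -0.096 to -0.045 for MLX targets. Directions turned for MYCL (-0.019 to 0.15), MXD1 (-0.12 to 0.17), MNT (-0.16 to 0.012), MGA (-0.005 to 0.23), SNAI1 (-0.12 to 0.13), ZBTB17 (-0.074 to 0.017), OLIG2 (-0.052 to 0.39), NES (-0.046 to 0.093), GFAP (-0.28 to 0.26), MOG (-0.12 to 0.72), EPCAM (-0.24 to 0.66) and PECAM1 (-0.52 to 0.15). CD68 turned as well (-0.53 to 0.16). The causes were not tested. The number of arrays limits the precision of every value.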

Other observations

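The E2F motif found in the MYCN window was also looked at over all measured genes. The 299 measured genes with TTTCGCGC or TTTGGCGC on either strand of a promoter window had a median log2 fold change of -0.03, against 0.00 for the 15739 genes without it, and 57.5% of them lay below 0, against 48.7%. MYCN itself had a log2 fold change of -0.27. No test was made on this split, which was chosen after the values were seen.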
